A study of Mus musculus with 8 samples.

Results

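The interleukin 1 family and its decoys were described here through 10 genes, chosen by symbol: the agonists Il1a, Il1b, Il18 and Il33, the antagonists and decoys Il1rn, Il1r2 and Il18bp, the signalling receptors Il1r1 and Il1rl1, and the processing protease Casp1. They had 16 of the 41174 probes on the array and were 10 of 19439 named genes. Colon RNA of 8 male mice aged 21 to 24 weeks, all eating the AIN-76A control diet, had been labelled with Cy3 and hybridised to Agilent arrays, 1 array per mouse, against a Cy5 reference made of RNA of Swiss mice (fetuses, and adult liver, kidney, colon and small intestine). One group was 4 Mdr1a-/- mice on the FVB/N strain background with a high colonic histological injury score. The other was 4 wild type FVB/N mice whose score was low. The disrupted gene, Abcb1a, encodes a drug efflux pump, and these knockouts are used to model inflammatory bowel disease. The mice had been chosen by score, so genotype and score cannot be told apart, and colon RNA mixes all cell types of the organ.

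Values are log2(sample / reference), and differences are Mdr1a-/- minus arrays labelled FVB/N, given with the standard error of the limma fit. A probe was called at a limma p, adjusted by the method of Benjamini and Hochberg over all probes, under 0.05. The 7 defining markers of colon epithelium (Cdx1, Cdx2, Car1, Slc26a3, Krt20, Vil1 and Epcam) exceeded background on all 8 arrays, as did 67% to 86.3% of probes on each. The targeted gene did not separate the groups: the Abcb1a probe A_51_P155445 read -0.89, -0.95, -0.70 and -0.97 on Mdr1a-/- arrays 1 to 4 and -0.80, 0.01, -0.49 and -0.62 on arrays 1 to 4 labelled FVB/N, a difference of -0.40 ± 0.19 (limma adjusted p = 0.362). The authors' deposited table gives -1.62 for it (adjusted p = 9.75e-05). The Abcb1a probe was above background on 3 Mdr1a-/- arrays and on 4 labelled FVB/N. The sources used here do not say whether it lies in the disrupted stretch. The protocol lists the slides of 3 of 4 Mdr1a-/- files but of 0 of 4 files labelled FVB/N, so the second group is called "labelled FVB/N" throughout and every direction rests on those labels.

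Interleukin 1 alpha and interleukin 1 beta bind the same signalling receptor, Il1r1, and switch on NF-kappa B and the recruitment of neutrophils. The family is held back at several points: the receptor antagonist Il1rn occupies Il1r1 without signalling, the decoy receptor Il1r2 binds interleukin 1 but lacks a signalling domain, and Il18bp is a secreted protein that captures interleukin 18. Interleukin 1 beta and interleukin 18 are made as inactive precursors that caspase 1 cuts. Interleukin 18 is made constitutively by gut epithelium, and interleukin 33 is a nuclear cytokine released by damaged cells that acts through Il1rl1, also called ST2, whose soluble form is itself a decoy.

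Il1b rose in Mdr1a-/- colon by a log2 fold change of 2.59 ± 0.58, Il1r2 by 2.09 ± 0.45 and Il1r1 by 0.98 ± 0.19, while Il18 fell by 1.25 ± 0.26 (n = 4 arrays per group, limma adjusted p = 0.0473, 0.0420, 0.0258 and 0.0394). One of 2 probes of Il18bp also rose, by 1.80 ± 0.33 (limma adjusted p = 0.0230). At these probes an agonist, a signalling receptor, a decoy receptor and a binding protein were higher in the Mdr1a-/- mean. The interleukin 18 transcript was lower. None of these calls held when the day of scanning was fitted as well (limma adjusted p from 0.0673 to 0.161). Day 1 held only Mdr1a-/- replicate 4, so that fit drew no group difference from this array. Its fold changes were 2.73 for Il1b, 2.04 for Il1r2, 0.86 for Il1r1, -1.28 for Il18 and 1.71 for Il18bp. Over all probes it called 133 higher and 115 lower. Each call named above held in 2 or 3 of the 8 fits that left out 1 array. The second Il1r2 probe and the brighter Il18bp probe were not called (limma adjusted p = 0.227 and 0.103). By the ratio, Mdr1a-/- replicate 2 was the highest of its group for Il1b and the lowest for Il1r2, and replicate 3 the reverse. Of the 16 probes, 4 were called higher and 1 lower, against 1.53% and 1.45% of all probes. The genes were chosen with earlier results of these data known, so this share and those below are descriptive. An unadjusted limma p under 0.05 was held by 3242 higher and 2894 lower probes of all 41174, and by 11 of the 16. Every Mdr1a-/- array lay above every other one for 4 probes, and below for 1, against 5.31% and 4.94% of all probes. The authors' deposited table gives values for 15 of the probes and calls 8 higher and 1 lower, against 6.3% and 4.35% of the probes it holds. With 1 probe per gene, the one with the highest mean intensity, 3 of 10 genes were called higher and 1 lower, against 2.26% and 2.17% of all genes. The median log2 fold change of the 10 genes was 0.81, against 0.03 for all genes, and 9 of 10 lay above 0. At those probes the groups were apart upward for 3 genes and downward for 1, against 7.25% and 6.57% of all genes.

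**Figure D1:**
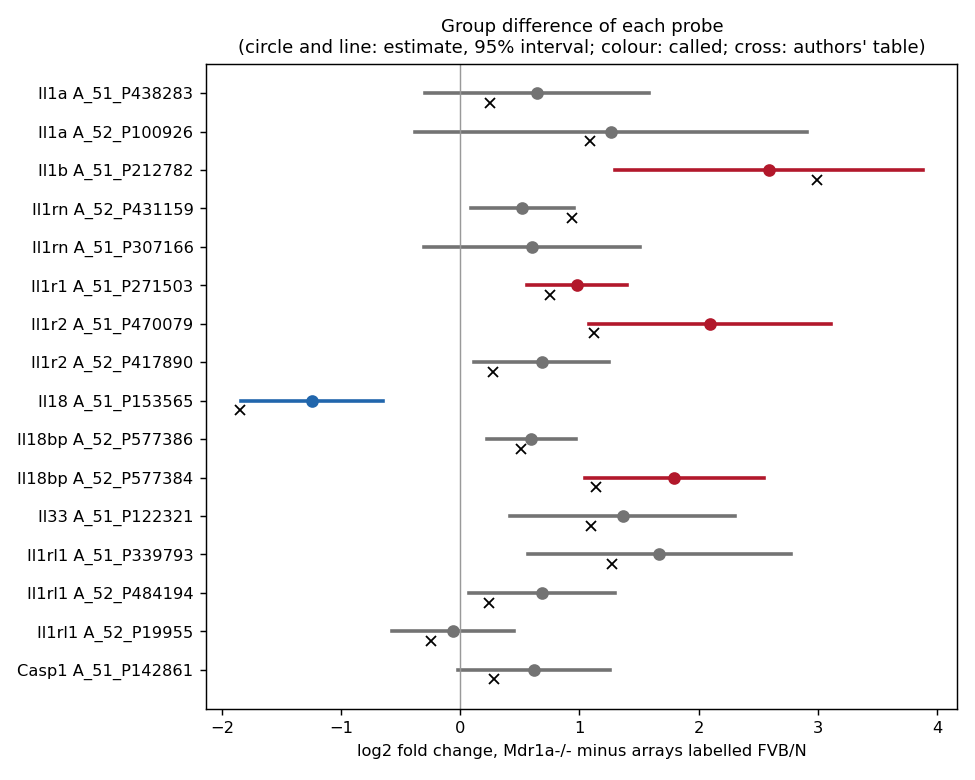
Log2 fold change of each of the 16 probes (x axis, Mdr1a-/- minus arrays labelled FVB/N), with the limma estimate and 95% interval, 4 arrays per group. Red probes were called higher, blue lower and grey not called, and crosses are the authors' deposited fold changes. All probes except Il18 and the third Il1rl1 probe (A_52_P19955) have an estimate above 0.

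The start regions of 4 of these genes are shown because Il1b and Il1r2 had the largest called fold changes of the family and Il18 and Il18bp form the pair that separated the groups. Each runs from 250 bases before to 50 after the start, in the RefSeq table of GRCm38.p6, 5′ to 3′ on the gene's strand.
Il1b chr2:129371090-129371389 (-): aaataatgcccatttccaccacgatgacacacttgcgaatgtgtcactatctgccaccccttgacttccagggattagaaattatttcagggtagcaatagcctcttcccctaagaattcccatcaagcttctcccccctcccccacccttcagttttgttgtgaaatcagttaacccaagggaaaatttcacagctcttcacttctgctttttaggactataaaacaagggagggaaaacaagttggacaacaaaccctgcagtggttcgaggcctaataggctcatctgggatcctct
Il1r2 chr1:40085843-40086142 (+): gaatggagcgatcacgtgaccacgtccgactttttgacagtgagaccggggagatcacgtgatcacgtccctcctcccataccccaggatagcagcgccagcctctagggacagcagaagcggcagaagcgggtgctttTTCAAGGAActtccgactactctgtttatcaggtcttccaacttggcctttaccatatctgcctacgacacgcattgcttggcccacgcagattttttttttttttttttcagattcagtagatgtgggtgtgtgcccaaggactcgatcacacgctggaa
Il18 chr9:50554450-50554749 (+): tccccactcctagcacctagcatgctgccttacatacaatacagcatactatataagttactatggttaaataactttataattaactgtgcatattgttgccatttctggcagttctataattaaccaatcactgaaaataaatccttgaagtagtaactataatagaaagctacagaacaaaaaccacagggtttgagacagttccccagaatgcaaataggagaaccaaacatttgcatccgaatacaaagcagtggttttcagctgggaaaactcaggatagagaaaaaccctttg
Il18bp chr7:102018183-102018482 (-): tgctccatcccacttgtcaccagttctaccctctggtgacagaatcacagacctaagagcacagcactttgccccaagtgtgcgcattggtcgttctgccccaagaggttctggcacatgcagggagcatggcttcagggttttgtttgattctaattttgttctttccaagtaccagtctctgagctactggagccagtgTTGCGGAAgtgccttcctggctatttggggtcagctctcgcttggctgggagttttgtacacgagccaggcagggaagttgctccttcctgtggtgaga
Capitals mark matches to the motifs searched on both strands, with N for any base: kappa B (GGGANNNNCC), GAS, the STAT motif (TTCNNNGAA), ISRE, the interferon motif (GAAANNGAAA), AP-1 (TGANTCA) and C/EBP (TTGCNNAA). The Il1r2 window held 1 GAS match and the Il18bp window 1 C/EBP match. Those of Il1b and Il18 held no match to these letters. Of 32851 windows in that table, 20.7% held a kappa B match, 8.30% GAS, 3.44% ISRE, 7.81% AP-1 and 10.8% C/EBP. A match describes the letters and not binding.

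Among the agonists, the Il1b probe A_51_P212782 read 4.13, 4.24, 2.94 and 3.52 on Mdr1a-/- arrays 1 to 4. On the arrays labelled FVB/N it read 0.59, 2.97, 0.07 and 0.83. The Mdr1a-/- arrays were all high, but the groups overlapped, because replicate 2 labelled FVB/N lay slightly above Mdr1a-/- replicate 3. The means were 3.70 ± 0.60 (SD, n = 4) and 1.11 ± 1.28 (SD, n = 4), a ratio of 6.02 with a 95% interval of 1.29 to 3.89 on the log2 scale. In bulk colon RNA, more cells of a kind and more RNA per cell cannot be told apart. The authors' deposited table gives a log2 fold change of 2.99 for the same probe (adjusted p = 0.000275).

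The Il1b reading also depended on the reference channel, which carries the same RNA on every array. Its Cy5 net signal was 1922, 1716, 1242 and 8827 on Mdr1a-/- arrays 1 to 4, and 903, 1249, 1058 and 965 on the arrays labelled FVB/N. Mdr1a-/- replicate 4 therefore stood apart in the reference channel too, and there the Cy3 signal of the sample, 60595, was near saturation. The highest Cy5 signal was 9.78 times the lowest, against a median of 1.87 over 40517 probes, and 5.27% of those probes had a ratio as large. The Cy3 channel alone, an alternative added after the data were seen, placed Il1b at 14.59, 14.25, 12.69 and 16.24 (normalized log2 intensity) on the Mdr1a-/- arrays. On those labelled FVB/N it gave 10.06, 13.01, 9.98 and 10.55. The difference was then 3.54 ± 0.81, larger than from the ratio, with a limma adjusted p of 0.0512. In that channel replicate 4 was the highest Mdr1a-/- array, whereas by the ratio it was the third, so the order of the 4 mice is not settled for Il1b. The cause of the high Cy5 signal was not tested.

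The call for Il1b was near the threshold (limma adjusted p = 0.0473) and was lost in most fits that left out 1 array. Without replicate 2 labelled FVB/N the fold change was 3.21 (limma adjusted p = 0.00646), and without Mdr1a-/- replicate 3 it was 2.85 (0.0452). Leaving out any of the other 6 arrays gave 2.24 to 2.65 and limma adjusted p-values from 0.107 to 0.129, which ended the call. Among arrays scanned on day 2, 2 of each group, the fold change was 3.85, and among those of day 3, 1 Mdr1a-/- and 2 labelled FVB/N, it was 1.03. A scan day block gave 2.73 (limma adjusted p = 0.161). The call was also lost with the local background subtracted (2.57, limma adjusted p = 0.0534), a normexp offset of 10 (2.60, 0.0558) and trend and robust eBayes (0.0723).

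Il1a, the agonist that is active without cutting by caspase 1, was not called by either probe. Probe A_51_P438283 read -0.05, -0.13, 0.01 and 1.91 on the Mdr1a-/- arrays and -0.36, -0.42, -0.03 and -0.03 on those labelled FVB/N. Mdr1a-/- replicate 4 was far above the other 7 arrays, which ranged together. The second probe, A_52_P100926, read 1.60, 0.76, -0.38 and 3.78 against 0.18, 0.78, -0.13 and -0.13, and replicate 4 was again the highest. The log2 fold changes were 0.65 ± 0.42 and 1.27 ± 0.73 (limma adjusted p = 0.544 and 0.484). Both probes placed the same mouse on top. A scan day block gave 0.16 and 0.41, the values within scan day 2 were 0.11 and 1.16, and those within day 3 were 0.24 and -0.71. Leaving out Mdr1a-/- replicate 4 gave 0.16 and 0.48.

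Il18 moved the other way. Its probe A_51_P153565 read -0.10, 0.04, -0.47 and 0.14 on Mdr1a-/- arrays 1 to 4 and 0.68, 1.90, 0.89 and 1.13 on the arrays labelled FVB/N. Every Mdr1a-/- array lay below every other one, by a ratio of 2.37 between the group means (95% interval of the log2 fold change -1.84 to -0.65). The authors' deposited table gives -1.85 (adjusted p = 1.26e-05). The fold change was -1.33 in the Cy3 channel alone (limma adjusted p = 0.0250), and -0.82 and -1.98 within scan days 2 and 3. A scan day block gave -1.28 (limma adjusted p = 0.138). Leaving out replicate 1 or 2 labelled FVB/N kept the call (limma adjusted p = 0.0453 and 0.0467), and leaving out any of the other 6 arrays ended it (limma adjusted p from 0.0677 to 0.103).

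Il33 (A_51_P122321) read 1.05, -0.52, 0.67 and 1.74 on the Mdr1a-/- arrays and -0.18, -0.71, -1.04 and -0.59 on those labelled FVB/N. Mdr1a-/- replicate 2 lay among the second group and the other 3 lay above it. The log2 fold change was 1.36 ± 0.42 (limma adjusted p = 0.140), and without replicate 2 it was 1.78 (limma adjusted p = 0.0184). Its authors' deposited value is 1.10 (adjusted p = 0.0150).

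**Figure D2:**
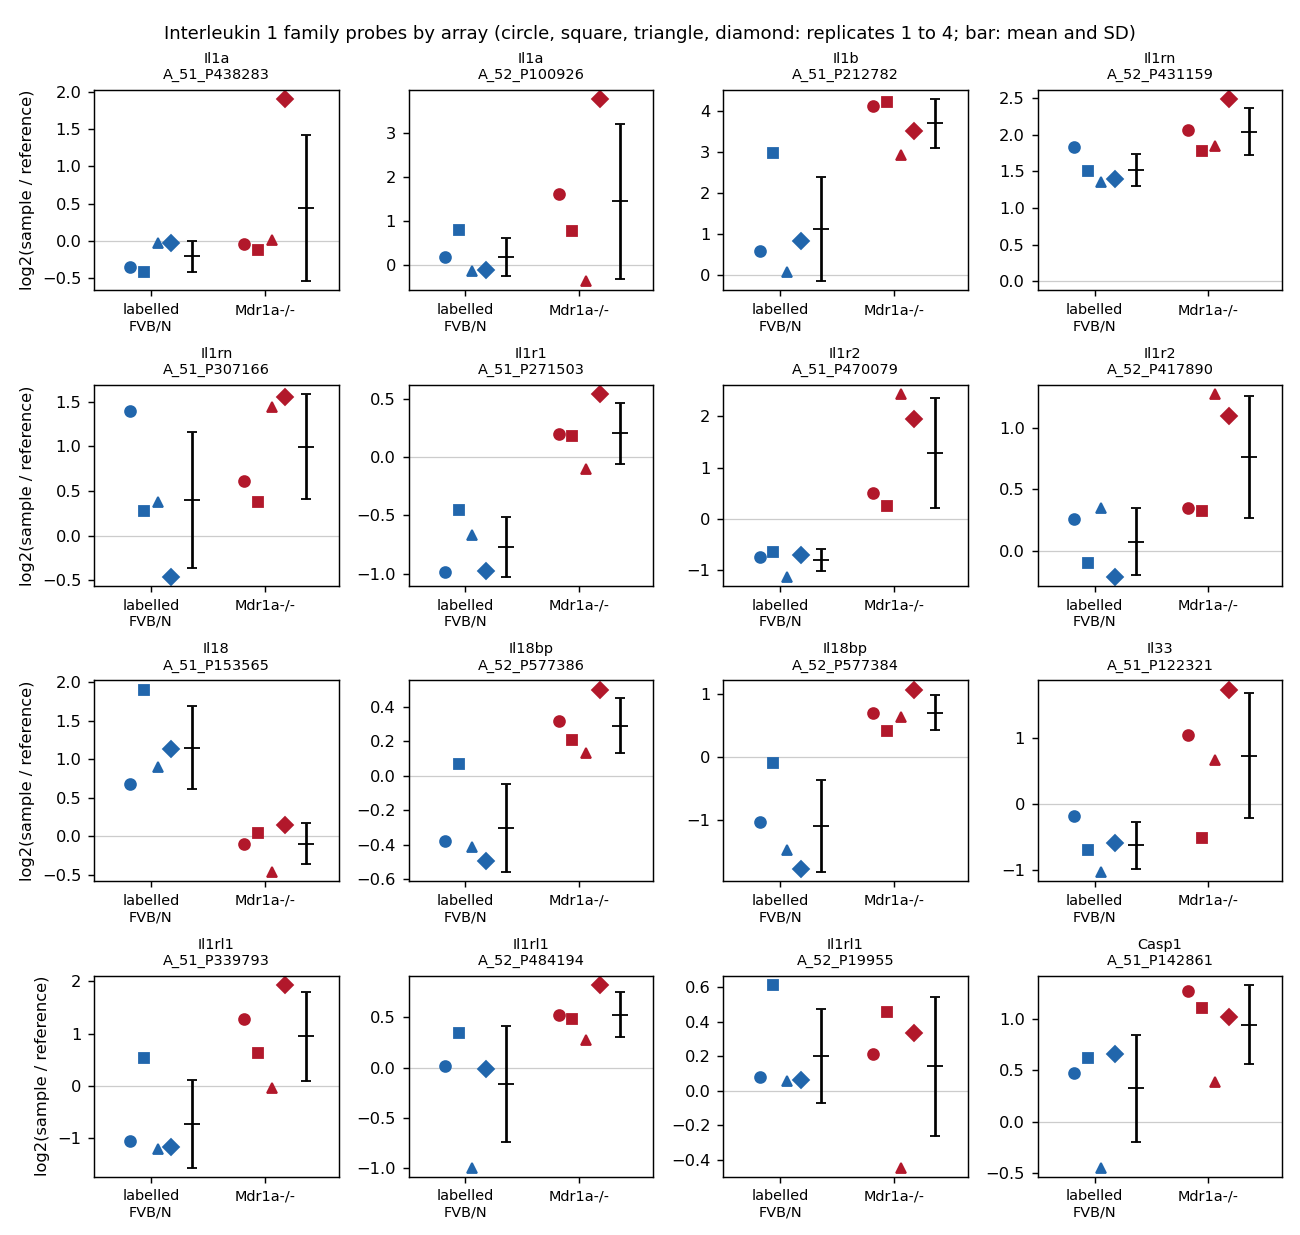
Log2(sample / reference) of the 16 probes on each array (y axis, scaled per panel), blue for arrays labelled FVB/N and red for Mdr1a-/-, with circle, square, triangle and diamond for replicates 1 to 4 and bars for the mean and SD. Il1r1, the first Il1r2 probe, Il18 and both Il18bp probes do not overlap between the groups, and replicate 2 labelled FVB/N (blue square) lies near the Mdr1a-/- values for Il1b and the first Il1rl1 probe.

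Among the antagonists, the interleukin 1 receptor antagonist Il1rn was not called by either probe. Probe A_52_P431159 read 2.06, 1.77, 1.85 and 2.49 in Mdr1a-/- colon and 1.83, 1.50, 1.36 and 1.39 on the arrays labelled FVB/N. The Mdr1a-/- arrays were mostly the higher ones, with an overlap at replicate 1 labelled FVB/N. Its log2 fold change was 0.52 ± 0.19 (limma adjusted p = 0.231), and the authors' deposited table calls it higher at 0.94 (adjusted p = 0.0125). The second probe, A_51_P307166, was above background on 2 Mdr1a-/- arrays and on 0 of those labelled FVB/N. On the latter arrays it has only a bound, and its fitted log2 fold change was 0.60 ± 0.40 (limma adjusted p = 0.564).

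The decoy receptor Il1r2 was higher in Mdr1a-/- colon at probe A_51_P470079, which read 0.50, 0.24, 2.43 and 1.95, against -0.75, -0.66, -1.14 and -0.71. No arrays overlapped, and Mdr1a-/- replicates 3 and 4 lay well above replicates 1 and 2. The ratio of the means was 4.27, and the probe was above background on 4 Mdr1a-/- arrays but on 2 of those labelled FVB/N. The second probe, A_52_P417890, read 0.35, 0.33, 1.27 and 1.10 against 0.26, -0.10, 0.35 and -0.21 (log2 fold change 0.68 ± 0.25, limma adjusted p = 0.227). It had the same 2 mice on top but was not called. For the first probe the fold change was 1.31 within scan day 2, 3.12 within day 3 and 2.04 under a scan day block (limma adjusted p = 0.0673). In the Cy3 channel alone it was 1.85 (limma adjusted p = 0.0730), and without background correction 1.14 (limma adjusted p = 0.0902). Leaving out Mdr1a-/- replicate 1, 2 or 3 kept the call at 1.71 to 2.44 (limma adjusted p from 0.0215 to 0.0497), and without Mdr1a-/- replicate 4 or any single array labelled FVB/N it was 1.87 to 2.15 and not called (limma adjusted p from 0.0878 to 0.128).

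The interleukin 18 binding protein had 2 probes, which differed in size. Probe A_52_P577384 read 0.70, 0.41, 0.64 and 1.08 on the Mdr1a-/- arrays and -1.03, -0.09, -1.47 and -1.77 on those labelled FVB/N. The brighter probe A_52_P577386 read 0.32, 0.21, 0.13 and 0.50 against -0.38, 0.07, -0.42 and -0.49. On both, every Mdr1a-/- array lay above every other one, and replicate 2 was the highest of the arrays labelled FVB/N. The first rose with a ratio of 3.47, and the second had a log2 fold change of 0.59 ± 0.17 that was not called (limma adjusted p = 0.103). The authors' deposited table calls both, at 1.14 and 0.51 (adjusted p = 0.00408 and 0.00165), and so did the Cy3 channel alone, at 1.75 and 0.74 (limma adjusted p = 0.0338 and 0.0459). For A_52_P577384, leaving out Mdr1a-/- replicate 2 or 3 or replicate 2 labelled FVB/N kept the call (1.82 to 2.13, limma adjusted p from 0.00646 to 0.0400). Leaving out any of the other 5 arrays gave 1.57 to 1.82 and ended it (limma adjusted p from 0.0589 to 0.0809). Scan days 2 and 3 gave 1.80 and 1.57, and a scan day block 1.71 (limma adjusted p = 0.119).

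Among the receptors that signal, Il1r1 (A_51_P271503) read 0.20, 0.18, -0.10 and 0.54 on Mdr1a-/- arrays 1 to 4 and -0.98, -0.45, -0.67 and -0.97 on the arrays labelled FVB/N. The groups were apart, and the spread within each was small, with SDs of 0.26 and 0.26 (n = 4 each). The group means differed by a ratio of 1.97. Without Mdr1a-/- replicate 3 or replicate 2 labelled FVB/N the fold change was 1.08 and 1.08 (limma adjusted p = 0.0212 and 0.0307). Without any 1 of the other 6 arrays it was 0.86 to 1.01 and not called (limma adjusted p from 0.0525 to 0.0848). It was 1.02 and 0.61 within scan days 2 and 3, 0.86 under a scan day block (limma adjusted p = 0.146) and 0.74 in the Cy3 channel alone (limma adjusted p = 0.153).

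The 3 probes of Il1rl1, the interleukin 33 receptor, did not give 1 picture. Probe A_51_P339793 read 1.28, 0.63, -0.05 and 1.93 on the Mdr1a-/- arrays and -1.05, 0.54, -1.21 and -1.17 on those labelled FVB/N. Replicate 2 labelled FVB/N lay among the Mdr1a-/- values and the other 3 far below them. The log2 fold change was 1.67 ± 0.49 (limma adjusted p = 0.122), and without that array it was 2.09 (limma adjusted p = 0.0473). The other probes gave 0.68 ± 0.27 (A_52_P484194, limma adjusted p = 0.271) and -0.06 ± 0.23 (A_52_P19955, limma adjusted p = 0.939). The receptor is made in membrane and soluble forms, and which form each probe detects was not given in the sources used here. Probes A_51_P339793 and A_52_P19955, which differed most, are annotated to the same transcript record, and A_52_P484194 to another.

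Casp1, the protease that matures interleukin 1 beta and interleukin 18, had a Cy3 net signal of 13001 to 51164. Its probe A_51_P142861 read 1.27, 1.11, 0.39 and 1.02 in Mdr1a-/- colon and 0.47, 0.62, -0.45 and 0.66 on the arrays labelled FVB/N. The Mdr1a-/- arrays were higher except replicate 3, which lay among the others. The log2 fold change of 0.62 ± 0.28 was not called (limma adjusted p = 0.353), with 1.18 within scan day 2 and -0.25 within day 3. The authors' deposited table does not call it either (0.29, adjusted p = 0.441).

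Agonists were set against antagonists within each array, as the log2 ratio of the first gene minus that of the second at the brightest probe of each, for 6 pairs. A change in this difference shows that the 2 genes changed unequally. The pairs were chosen with earlier results of these data known, so the permutation p-values below are descriptive. The difference of Il18 and Il18bp was -0.42, -0.16, -0.60 and -0.36 on the Mdr1a-/- arrays and 1.06, 1.83, 1.31 and 1.62 on the arrays labelled FVB/N. The groups were far apart, with the difference lower on every Mdr1a-/- array than on every other one. Each ratio is to the reference, so the sign of the difference does not tell which transcript was the more abundant. The shift was -1.84 ± 0.19, a ratio of 3.58, with an exact two-sided permutation p of 0.0286, the smallest that 4 against 4 arrays can give, and 0.171 after adjustment over the 6 pairs. It ranged from -2.44 to -1.48 over all alternatives, below 0 in each.

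The difference of Il1b and Il1rn was 2.06, 2.46, 1.09 and 1.03 against -1.24, 1.47, -1.29 and -0.56. Mdr1a-/- arrays were higher except that replicate 2 labelled FVB/N exceeded 2 of them. The shift toward the agonist was 2.07 ± 0.74 (exact permutation p = 0.0857, 0.229 adjusted over the 6 pairs) and did not pass. Against the decoy receptor, Il1b shifted by 0.50 ± 1.01 (Il1b minus Il1r2, exact permutation p = 0.714, adjusted 0.771), with values from 0.50 to 3.99 in Mdr1a-/- colon, a wider spread than the shift. The signalling receptor against the decoy, Il1r1 minus Il1r2, shifted by -1.12 ± 0.59 (exact permutation p = 0.114, adjusted 0.229), with Mdr1a-/- replicates 3 and 4 at -2.53 and -1.41. Il1a minus Il1rn shifted by 0.13 ± 0.40 (exact permutation p = 0.771, adjusted 0.771), and Il33 minus Il1rl1 by -0.31 ± 0.60 (exact permutation p = 0.571, adjusted 0.771). The signs of Il1b minus Il1r2, Il1a minus Il1rn and Il33 minus Il1rl1 turned under some alternatives.

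**Figure D3:**
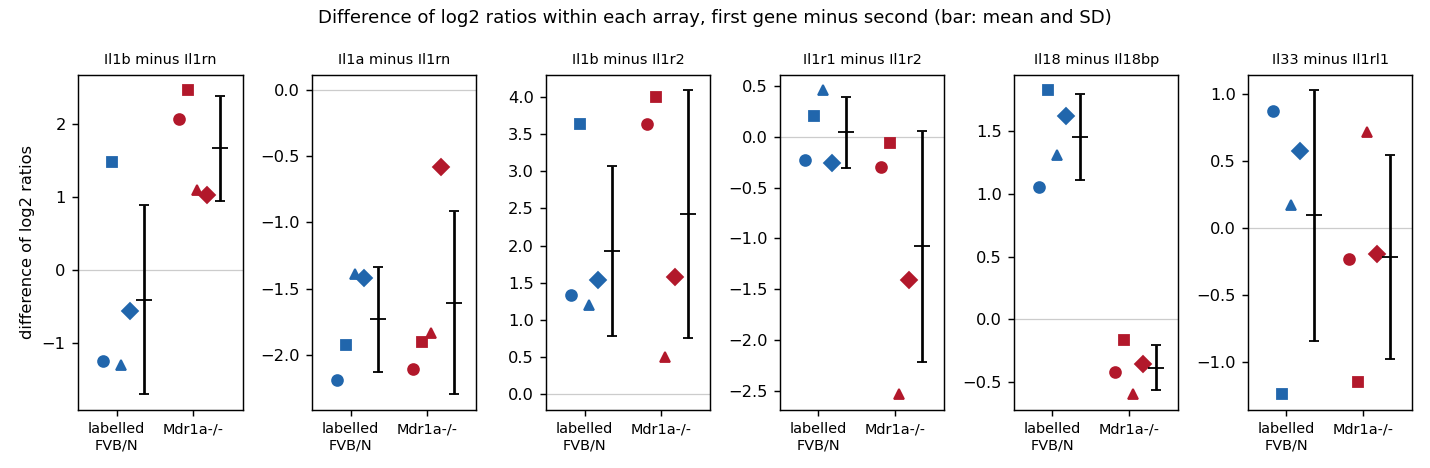
Difference of log2 ratios within each array for the 6 pairs (y axis, first gene minus second, scaled per panel), blue for arrays labelled FVB/N and red for Mdr1a-/-, with symbols for replicates 1 to 4 and bars for the mean and SD. Il18 minus Il18bp is below 0 on all Mdr1a-/- arrays and above 1 on all others, and the groups overlap in the other 5 panels.

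The genes around the family were read as lists, by counts of calls with the brightest probe per gene, by which 2.26% of all genes were called higher and 2.17% lower. Of 8 measured other family members and receptors, 1 was called higher and 0 lower (median log2 fold change 0.14). The one called was Il18r1, the interleukin 18 receptor chain, at 1.78 ± 0.31 (limma adjusted p = 0.0176), and it kept the call in all 8 fits that left out 1 array but not under the scan day block (limma adjusted p = 0.0607) or the replicate block (0.0587). It read 2.06, 2.90, 2.43 and 1.88 in Mdr1a-/- colon against 0.84, 0.79, -0.33 and 0.82, with no overlap. Sigirr, an inhibitory receptor, had -0.49 ± 0.17 (limma adjusted p = 0.196), and Il1rl2, another receptor of the family, 0.40 ± 0.20 (limma adjusted p = 0.409). In the GRCm38.p6 annotation Il1r2, Il1r1, Il1rl2, Il1rl1 and Il18r1 follow each other on chromosome 1. The first, second and last of that row were called higher, while Il1rl2 and Il1rl1 were not.

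Of 18 measured inflammasome and pore genes, 1 was called higher and 0 lower (median 0.08), a single gene beside that background share of 2.26%. Mefv, which encodes the inflammasome sensor pyrin, rose by 1.76 ± 0.25 (limma adjusted p = 0.00777) and kept the call in all 8 fits that left out 1 array and under a scan day block (1.52, limma adjusted p = 0.0157). Casp4, the caspase that senses bacterial lipopolysaccharide, had 1.62 ± 0.41 (limma adjusted p = 0.0784), and Nlrp6, a sensor of gut epithelium, -1.14 ± 0.32 (limma adjusted p = 0.102). Casp4 lies next to Casp1 on chromosome 9. Of 11 proteases that cut family cytokines, 0 were called by limma (median 0.02), among them Ctsg (0.83 ± 0.33, limma adjusted p = 0.267) and Cma1 (-0.53 ± 0.21, limma adjusted p = 0.276).

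Downstream of the receptor, 1 of 24 signalling genes was called higher and 0 lower (median 0.29), again a single gene beside 2.26% of all genes. It was Map3k8, a kinase activated downstream of the receptor, at 0.95 ± 0.18 (limma adjusted p = 0.0246). That call was lost without Mdr1a-/- replicate 4 or replicate 2, 3 or 4 labelled FVB/N (0.82, 0.97, 0.88 and 0.94, limma adjusted p from 0.0580 to 0.0785). Nfkbiz had 1.23 ± 0.32 (limma adjusted p = 0.0801) and Tab2 0.48 ± 0.14 (limma adjusted p = 0.107). Of 23 genes known to be induced by interleukin 1, 7 were called higher and 0 lower (median 1.32), among them the adhesion molecules Vcam1 (2.30 ± 0.23, limma adjusted p = 0.00206) and Icam1 (2.17 ± 0.26, 0.00382) and the collagenase Mmp13 (2.01 ± 0.23, 0.00293). Those 3 kept the call in all 8 fits that left out 1 array. Many other cytokines induce the same genes. In this list 22 of the 23 lay above 0. The other, Saa3, named after its values were seen, had -1.06 ± 0.33 (limma adjusted p = 0.149) with its groups apart downward. Of 11 genes that answer interleukin 18 or interleukin 33, 0 were called by limma (median 0.36), with Ifng at 1.78 ± 0.48 (limma adjusted p = 0.0921), Gzmb at 1.01 ± 0.37 (0.223) and Ccl17 at 0.74 ± 0.30 (0.270).

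**Figure D4:**
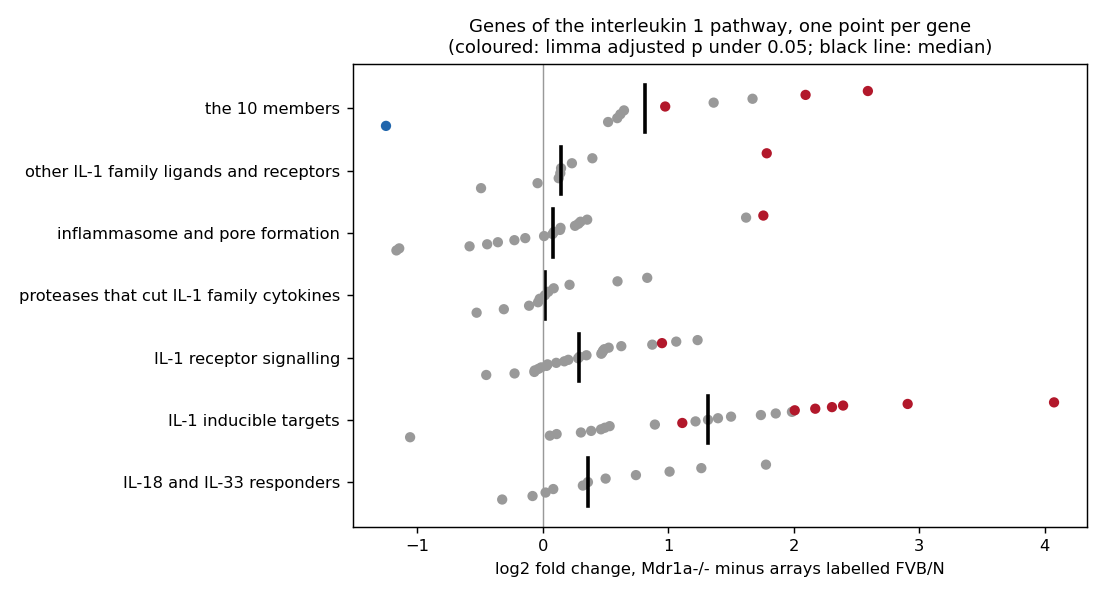
Log2 fold change of each measured gene (x axis, Mdr1a-/- minus arrays labelled FVB/N, 1 point per gene at its brightest probe) in the 10 members and 6 related lists, red for genes called higher, blue for lower and grey for not called, with a black line at the median. The induced targets have the highest median, 1.32, and the proteases the lowest, 0.02.

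Markers of the cells that make or answer these cytokines moved with the groups. The counts below stand beside 2.26% of all genes called higher and 2.17% lower at the brightest probe. The mean log2 ratio of 14 neutrophil genes was 1.84, 0.79, 2.14 and 2.41 on Mdr1a-/- arrays 1 to 4 and -0.50 to -0.19 on the arrays labelled FVB/N, with 6 genes called higher, led by S100a8 (4.69 ± 0.54, limma adjusted p = 0.00290) and S100a9 (4.18 ± 0.49, 0.00332). Both were near saturation on 3 Mdr1a-/- arrays, and S100a8 was above background on 2 arrays labelled FVB/N. Mdr1a-/- replicate 2 was the lowest of its group both in that mean and in Il1r2. The mean of 15 macrophage and dendritic cell genes was 1.28 to 1.81 in Mdr1a-/- colon and -0.03 to 0.54 otherwise, with 6 called higher, led by Cybb (2.20 ± 0.17, limma adjusted p = 0.000994) and Clec4d (3.95 ± 0.42, 0.00227). Of 11 T and NK cell genes, 3 were called higher (means 0.31 to 0.81 and -0.03 to 0.16), with Cd6 at 1.33 ± 0.16 and Lck at 1.05 ± 0.21. The call of Lck held in 2 of 8 fits that left out 1 array and was lost under the scan day block (limma adjusted p = 0.170). In this list 9 of the 11 lay above 0. The others, named after their values were seen, were the NK cell gene Ncr1 (-0.31 ± 0.17) and Cd3e (-0.03 ± 0.14), neither called. Of 15 colon epithelial genes, 3 were called lower (means -0.06 to 0.07 and 0.19 to 0.73), with Slc26a3 at -2.54 ± 0.24 and Car4 at -2.13 ± 0.39. The Car4 call was lost under the scan day block (limma adjusted p = 0.0741) and in 4 of 8 fits that left out 1 array. The list was not uniform: 4 of the 15 lay above 0, and Car1, named after its values were seen, had 0.83 ± 0.22 (limma adjusted p = 0.0825) with its groups apart upward. The part of these cells in the values of the family was not tested.

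Among 11 mast cell genes 0 were called by limma (means -0.25 to 0.01 and -0.37 to -0.03, Hdc at 1.82 ± 0.54 and Cpa3 at -0.54 ± 0.17), and Mcpt2 was above background on no array. Other tissues differed between arrays as well. A single call in a list stands beside shares of 2.26% higher and 2.17% lower over all genes. The mean of 12 pancreatic acinar genes ran from -1.41 to 1.06 in Mdr1a-/- samples and from 0.20 to 1.87 on the arrays labelled FVB/N (1 called lower, Cela1 at -2.79 ± 0.38, with Clps at -1.80 ± 0.52). That of 10 adipose genes ran from -1.13 to -0.49 and from -1.43 to 1.44 (0 called by limma, Plin4 at -1.77 ± 0.54, Car3 at -2.19 ± 0.71). Both were highest on replicate 2 labelled FVB/N. Within its group that array was also the highest at every probe of Il1b, Il18, Il18bp, Il1r1 and Il1rl1. The same held for Il1a A_52_P100926 and Il1r2 A_51_P470079. It did not hold for Il1rn, Il33, Casp1 or the remaining Il1a and Il1r2 probes. Of 12 squamous epithelial genes 1 was called higher (Sprr1a, 1.74 ± 0.33, with Ivl at -1.01 ± 0.25). The call of Sprr1a held in 2 of 8 fits that left out 1 array and was lost under the scan day block (limma adjusted p = 0.117). By limma 0 of 12 fibroblast and endothelial genes (Col1a1 1.21 ± 0.31, Col1a2 0.93 ± 0.28) and 0 of 8 smooth muscle genes were called (Lmod1 -0.74 ± 0.21, Myh11 -1.05 ± 0.36).

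The profiles most like those of an agonist and its antagonist were sought by the root mean square difference of array-centred log2 ratios over the 8 arrays, among 17815 genes. For Il1b the nearest were Ubd (0.526), Myl7 (0.625), Bcl2a1b (0.627), Casp4 (0.648) and Ly6m (0.719), on a profile that spanned 4.17. For Il1rn they included Qpctl (0.127), Lancl3 (0.134), Yaf2 (0.138) and Rap1b (0.141), on one that spanned 1.13. The measure weighs the size of a swing as well as its shape, and these profiles differ in span. Their nearest genes could therefore hardly be shared, and the lack of overlap was not a result.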

How the data were processed

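Colon RNA of 4 mice per group was measured on 2-colour Agilent arrays. The deposited array files hold mean Cy5 and Cy3 intensity and background per spot, per the file headers, and a log2 column. Subtracting background and applying loess to these intensities gave the deposited log2 values to within 3e-13, in the direction reference over sample, so the sign, which the deposited description gives the other way, was turned. The authors used limma, per the submitters' processing notes. The authors' deposited table holds fold changes, t scores and p-values, raw and adjusted. Its description calls the fold changes log10, but their slope on log2 fold changes without background correction was 0.87, so they are read as log2. For the image analysis program, none is given in the sources used here.

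The analysis used limma 3.58.1 (R 4.3.3): normexp with offset 50, loess in which control spots had weight 0, averages over spots of a probe, lmFit and eBayes over 41174 probes without covariates, two-sided, with Benjamini-Hochberg adjustment at 0.05. A probe was above background when its net Cy3 signal was over the 95th percentile among 314 negative controls, and near saturation at a Cy3 foreground of 55000 or more. Values of the Cy3 channel alone were normalized by loess and Aquantile, and dye bias can affect them, as dyes were not swapped. RefSeq tables of GRCm38.p6 named 22064 probes by accession. Pairs were compared by exact permutation over 70 assignments of arrays. Scan days are those in the file names, numbered in order: day 1 held Mdr1a-/- replicate 4, day 2 replicates 1 and 2 and those labelled FVB/N replicates 1 and 3, and day 3 the rest. The fit was tested on simulated data. The members, the lists and the pairs were chosen with earlier results of these data known. The text names every probe of the 10 genes and of Abcb1a, the 3 genes of each pathway list and the 2 of each cell type list with the smallest p, and the 5 profiles nearest to Il1b and to Il1rn, except 1 gene that is not reported here. The 4 arrays per group limit the precision. The groups' mice are separate animals, and each array is 1 mouse.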

Additional observations from a re-analysis of the deposited data

Results flagged for a closer look

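Of 44 groups of 4 values tested, 5 held 1 array whose gap to the nearest other array exceeded Dixon's critical share of the range of the group, and chance gives about 1 in 20. Il1a (A_51_P438283) read 1.91 on Mdr1a-/- replicate 4, against -0.13 to 0.01 on the other 3. Il1rl1 read 0.54 on replicate 2 labelled FVB/N at A_51_P339793 (others -1.21 to -1.05) and 0.61 on the same array at A_52_P19955 (others 0.06 to 0.08). Casp1 read -0.45 on replicate 3 labelled FVB/N (others 0.47 to 0.66). Il1b minus Il1r2 was 3.63 on replicate 2 labelled FVB/N (others 1.20 to 1.54). Replicate 2 labelled FVB/N carried 3 of the 5.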

How the results depend on the processing

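The counts of genes called higher and lower, 3 and 1, were 1 and 0 with the replicate block, which also gave 310 and 286 probes, and 0 and 0 with scan day as a block, which gave 133 and 115. Under the replicate block Il1b kept its call (limma adjusted p = 0.0391) and Il1r1, Il1r2, Il18 and the called Il18bp probe did not (0.0948, 0.103, 0.0561 and 0.0904). The numbers do not pair the mice: same-numbered arrays deviated together at r of 0.0644, 0.111, 0.0256 and -0.0349, each below the highest with another number. Within scan day 2, limma called 0 and 0 genes and 0 and 0 probes, with 2091 and 2109 probes at an unadjusted p under 0.05. With scan day as a block 6 and 1 of the 10 genes had an unadjusted limma p under 0.05, as had 2568 and 2342 of all 41174 probes. Array weights gave 5 genes called higher and 1081 and 939 probes, the authors' deposited values 7 genes and 2210 and 1525 probes, and the Cy3 channel alone 1 gene called higher (Il18bp) and 1 lower (Il18). That channel called 422 probes higher and 778 lower, against 628 and 598 from the ratio. Leaving out 1 array gave 0 to 3 genes higher, 0 to 1 lower, 250 to 783 probes higher and 247 to 675 lower.

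Of the pairs, Il1a minus Il1rn (0.13) turned to -0.028 without background correction, -0.041 with median centring, -0.19 under the scan day block, -0.21 in day 2 and -0.16 in day 3, and Il33 minus Il1rl1 (-0.31) to 1.05 within day 3 and 0.60 over the mean of all probes. Il1b minus Il1r2 (0.50) was 2.54 within day 2 and -2.08 within day 3, Il1b minus Il1rn (2.07) 3.53 and 0.64, and Il18 minus Il18bp (-1.84) -1.48 and -2.33. Il1r1 minus Il1r2 (-1.12) was -2.51 within day 3, -0.29 within day 2, -0.34 without background correction and -0.41 over the mean of all probes. Leaving out 1 array gave 1.77 to 2.69 for Il1b minus Il1rn, -0.22 to 0.29 for Il1a minus Il1rn, -0.027 to 1.14 for Il1b minus Il1r2, -1.46 to -0.63 for Il1r1 minus Il1r2, -1.97 to -1.72 for Il18 minus Il18bp and -0.76 to 0.0018 for Il33 minus Il1rl1. Of single probes, Il1rn A_51_P307166 was -0.39 and Il1rl1 A_52_P19955 0.27 within day 2. The latter was 0.033 with array weights, 0.21 in the Cy3 channel alone, and -0.17 to 0.13 when 1 array was left out. Ivl was 0.22 in the Cy3 channel alone. The cause of these changes was not tested. Over all named probes, 1184 of 1383 values kept their direction and side of the threshold. That total includes probes that were uncalled and stayed so. The call of Il1b held in 9 of 21 tested alternatives, Il1r1 in 11, Il1r2 (A_51_P470079) in 11, Il18 in 12 and Il18bp (A_52_P577384) in 13. Aquantile leaves log ratios unchanged by construction.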
